A study of Mus musculus with 6 samples.

Results

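Integrins and laminins, the receptors and some of the ligands through which cells hold on to basement membranes, were examined in B16 mouse melanoma cells with and without Ifngr1. The 34 genes were taken by name and comprised 24 integrin chains (16 α and 8 β) and 10 laminin chains (5 α, 3 β and 2 γ). All 34 were found among the 55335 gene identifiers of the count tables. The level of a chain is given as CPM, the count scaled to library size, per kilobase (kb) of exon, so that long and short genes can be compared.

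RNA of 6 cultures was sequenced after poly(A) selection, 3 of scrambled control cells and 3 of IFNγR1KO cells. Both lines came from B16-BL6, a melanoma line of C57BL/6 mice, after lentiviral delivery of Cas9 with a guide RNA and puromycin selection. The guide was directed against GFP in scrambled control and against exon 1 of Ifngr1, a receptor subunit for IFN-γ, in IFNγR1KO cells. IFNγR1KO cells were used as single clones screened for the lack of PD-L1 induction by IFN-γ, and no cytokine is given as added before RNA extraction. The labels call the control genotype WT and do not name the clone or the guide of a culture, so differences between the groups cannot be told apart from differences between clones. The cultures of a group were seeded as triplicates, so p-values measure the spread between these cultures and nothing wider.

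An integrin is a pair of an α and a β chain in the plasma membrane, and the combination sets which ligand is bound. The β1 chain pairs with many α chains, the αv chain pairs with several β chains, and α3β1, α6β1, α6β4 and α7β1 are the classical laminin receptors. A laminin is a trimer of an α, a β and a γ chain, whose α chain carries the domains bound by integrins, dystroglycan and syndecans. The α4 and α5 chains are typical of vessel walls and, for α5, of most adult basement membranes, and melanoma cells are known to secrete both. Inside the cell, talins and kindlins bind the β tail, and focal adhesion kinase and Src pass the signal on, among others to PI3K and Akt.

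Scrambled control libraries held 9402640 to 10579788 counts on genes and IFNγR1KO libraries 6698956 to 7409479. Across 13642 genes that passed a filter on low counts, 15.3% had an adjusted p under 0.05 in the comparison of the groups (quasi-likelihood test of edgeR, Benjamini-Hochberg adjustment), and 5.2% also had an absolute log2 fold change above 1, the definition of a DEG in the study. Ifngr1 was still counted, with 154, 144 and 172 counts in scrambled control and 80, 85 and 82 in IFNγR1KO libraries, a log2 fold change of -0.47 (SE 0.16, SE being the standard error; adjusted p = 0.0729, edgeR). The groups did not overlap for Ifngr1. All 7 melanocyte markers were counted in all libraries, their summed level lying between 27900 and 34660 CPM, and none passed the test. Endothelial and epithelial markers reached at most 4 counts in any library. Of 9 leukocyte and platelet markers, 7 were not tested for low counts, while Lyz2 and Csf1r were counted in every library and their differences did not pass. Replicate 3 of scrambled control and replicate 12 of IFNγR1KO cells stood apart within their groups: they held the highest value of their group for 13 and 15 of the 19 tested chains, against 39.3% and 41.1% of all tested genes. Calls among the chains and the adhesion lists are therefore also given without these 2 libraries. Over all genes, that fit made 3064 calls in place of 2093.

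The β chains were led by a single gene, and the α chains were spread over 5. Of the 34 members, 12 had a mean level of at least 1 CPM per kb: Itga4, Itga6, Itgav, Itga9, Itga5, Itgb1, Itgb5, Itgb3, Lama4, Lama5, Lamb2 and Lamc1. The filter on low counts left 19 members for the test, 14 integrin and 5 laminin chains. For 4 of these, Itga3, Itga7, Itga8 and Itga10, fewer than 3 libraries of 1 group passed the filter's minimum of 1.19 CPM. Itga7 entered through the IFNγR1KO libraries alone. The 15 members that were not tested are described further on.

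**Figure D1:**
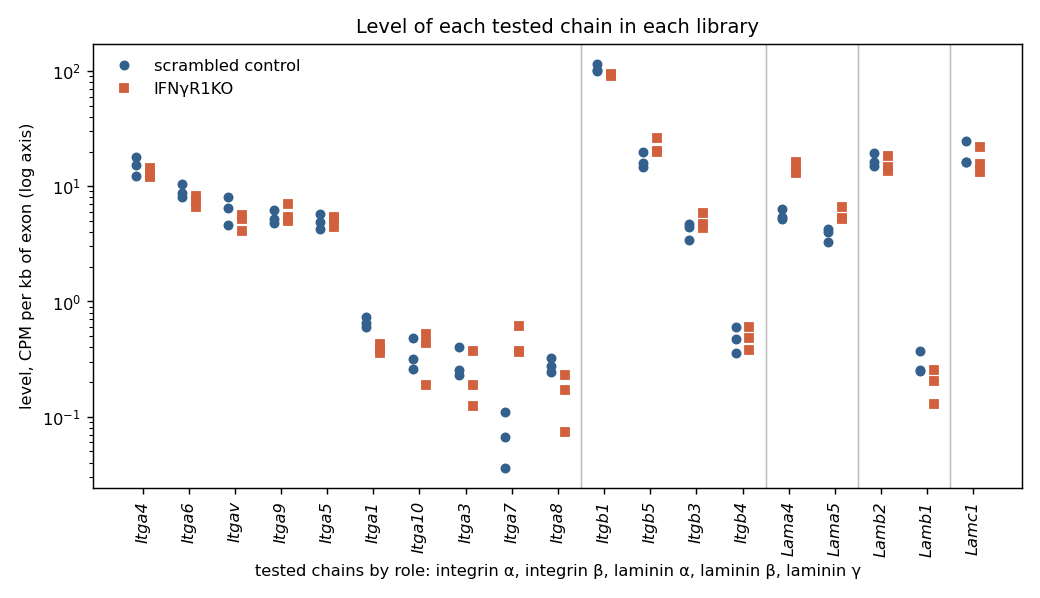
Level of the 19 tested chains in each library (vertical log axis, CPM per kb of exon; circles, 3 scrambled control libraries; squares, 3 IFNγR1KO libraries), ordered by mean level within each role. Itgb1 lay near 100 in every library, 12 chains lay above 1, and Lama4, Lama5, Itga7 and Itga1 separate the groups and passed the test.

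In IFNγR1KO cells the transcripts of both expressed laminin α chains, Lama4 and Lama5, rose, while the partners they need, Lamb2 and Lamc1, did not pass the test. Among the receptors, the laminin-binding α7 chain rose from a very low level, the collagen-binding α1 chain fell, and none of the 4 tested β chains passed. When 1 library was left out, Lama4 kept its call in 6 of 6 fits, Lama5 in 2 and Itga1 in 4. In all, 4 of 19 tested members had an adjusted p under 0.05 (3 higher and 1 lower), beside 7.73% of all tested genes that were higher and 7.62% that were lower. Lama4 and Itga7 were DEGs, both higher, where 3.25% of all tested genes were DEGs that were higher. Itga7 had entered the test through the IFNγR1KO libraries alone, so it could hardly be tested without differing. The median log2 fold change of the 19 was -0.12, beside -0.0015 for all tested genes. Groups without overlap were seen for 6 of the 19, a share close to the 32.6% of all tested genes. In bulk RNA, fewer cells with a transcript and less of it per cell cannot be told apart.

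**Figure D2:**
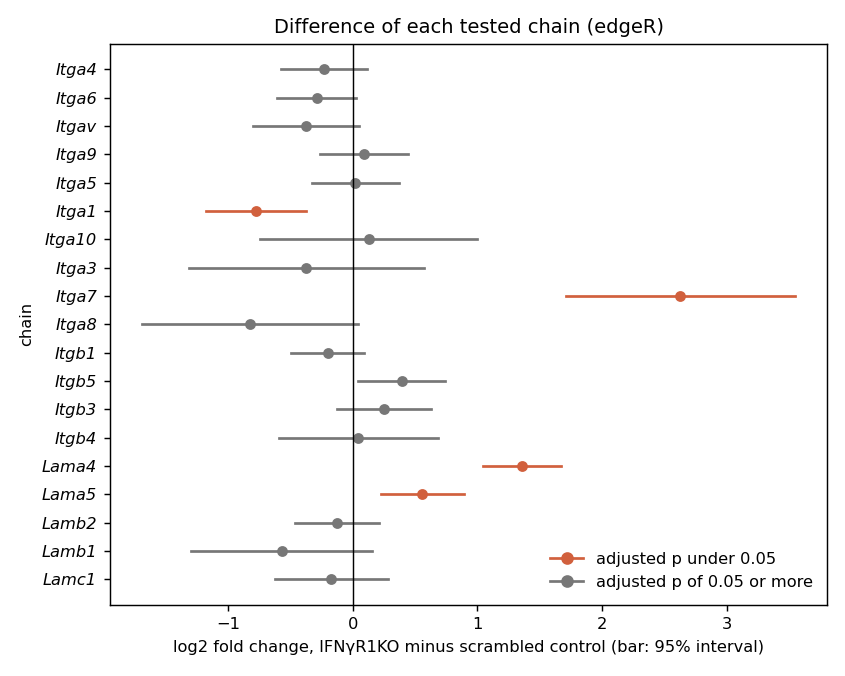
Log2 fold change (IFNγR1KO minus scrambled control, horizontal axis) of the 19 tested chains with its unadjusted 95% interval from edgeR. Itga7, Lama4 and Lama5 lie to the right of 0 and Itga1 to the left with adjusted p under 0.05 (orange), and the interval of Itgb5 also excludes 0 without passing the adjustment.

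Lama4 encodes the α4 chain of laminins, which lacks the large amino-terminal arm that longer α chains carry. The gene (ENSMUSG00000019846.11) is on chromosome 10 (GRCm38, 38965515 to 39110188), the chromosome that also carries Ifngr1 at 19591949 to 19610229. Its level was 5.45, 5.21 and 6.33 CPM per kb in scrambled control and 14.2, 13.1 and 16.3 in IFNγR1KO libraries. Every IFNγR1KO library lay above every scrambled control library. The means were 5.66 ± 0.587 and 14.5 ± 1.64 (n = 3 each, SD), with 1.36 as log2 fold change (SE 0.14, 95% interval 1.05 to 1.67, adjusted p = 8.7e-05 from edgeR). It had an adjusted p under 0.05 under all 11 alternatives. With the null moved from 0 to a log2 fold change of 1, its adjusted p was 0.219.

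Lama5 encodes the α5 chain, a long chain bound by α6β1 and α3β1 integrins and by the Lutheran glycoprotein Bcam. The gene (ENSMUSG00000015647.9) lies on chromosome 2 from 180176373 to 180225859. Its level was 4.26, 3.31 and 3.99 CPM per kb in scrambled control and 5.25, 5.17 and 6.60 in IFNγR1KO libraries. The groups did not overlap, and replicate 12 held the highest value. The means of 3.85 ± 0.489 and 5.68 ± 0.804 (n = 3 each, SD) differed by a log2 fold change of 0.56 (SE 0.15, 95% interval 0.23 to 0.89, adjusted p = 0.0271 from edgeR). This call was lost without scrambled control replicate 2 (adjusted p = 0.119) and without IFNγR1KO replicate 10, 11 or 12 (adjusted p = 0.0524, 0.0590 and 0.0536), with the same direction each time.

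**Figure D3:**
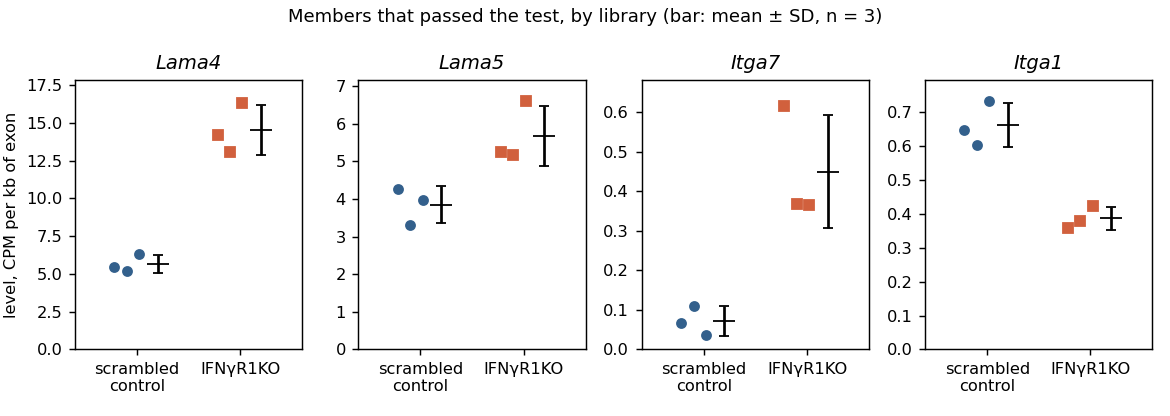
Level (CPM per kb of exon, linear axes from 0) of Lama4, Lama5, Itga7 and Itga1 in each library, circles for scrambled control and squares for IFNγR1KO cells, with mean ± SD of 3 libraries beside them. For each of the 4 genes the groups do not overlap; the first 3 were higher in IFNγR1KO cells and Itga1 was lower.

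No other laminin α chain was expressed. Lama1, typical of early embryonic basement membranes, had 0 counts in all 6 libraries, which allows up to 0.290 to 0.426 CPM per library (3 counts, counting error alone). Lama2, the chain of muscle and Schwann cells, had 3 counts in 1 scrambled control library and none elsewhere, and Lama3, the chain of epithelial anchoring laminin, had 1 count in each of 2 IFNγR1KO libraries.

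The β and γ partners of these α chains did not show the same shift. Lamb2, encoding the β2 chain, had levels of 14.98, 16.3 and 19.3 CPM per kb in scrambled control and 13.5, 14.7 and 18.2 in IFNγR1KO libraries. The groups overlapped, with a log2 fold change of -0.12 (95% interval -0.46 to 0.21, adjusted p = 0.653, edgeR). Lamc1, encoding the γ1 chain found in most laminins, had levels of 16.2, 16.3 and 24.8 in scrambled control and 13.4, 15.5 and 22.0 in IFNγR1KO libraries, with replicates 3 and 12 highest. Its log2 fold change was -0.17 (95% interval -0.63 to 0.28, adjusted p = 0.643, edgeR). Lamb1, the β1 chain, was far rarer than Lamb2, at 0.291 ± 0.0687 and 0.196 ± 0.0635 CPM per kb (SD, n = 3 each; adjusted p = 0.295, edgeR). Lamb3 had 0 to 4 counts and Lamc3 3 to 8 counts per library and were not tested, and 6.27% of the exonic bases of Lamc3 lie under exons of the other strand.

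The balance within the trimer parts differed accordingly. Summed over the α chains, the level was 9.52 ± 0.912 CPM per kb in scrambled control and 20.2 ± 2.42 in IFNγR1KO cells, beside 17.2 ± 2.31 and 15.7 ± 2.48 for the β chains and 19.2 ± 4.99 and 17.1 ± 4.45 for the γ chains (SD, n = 3 each). Lamb2 made up 98.2% ± 0.255 and 98.4% ± 0.0503 of the β chain level, and Lamc1 99.6% ± 0.126 and 99.2% ± 0.317 of the γ chain level. Lama4 made up 56.0%, 61.1% and 61.3% of the α chain level in scrambled control and 73.0%, 71.6% and 71.1% in IFNγR1KO libraries, and nearly all of the rest was Lama5. With the longest transcript in place of the union of exons as the length, these shares of Lama4 were 74.5% ± 2.44 and 83.6% ± 0.679. The ratio of Lama4 to Lama5 within a library was 1.28, 1.57 and 1.59 in scrambled control and 2.71, 2.52 and 2.47 in IFNγR1KO libraries. The ratio of Lama4 to Lamb2 was 0.364, 0.320 and 0.327 against 1.05, 0.887 and 0.894. These quantities depend on the length used: with the longest transcripts this ratio was 0.673, 0.590 and 0.604 against 1.94, 1.64 and 1.65, and the summed α chain level was 15.2 ± 1.45 and 34.7 ± 4.04 CPM per kb (SD, n = 3 each). Each of these ratios separated the groups, at p = 0.1 in a two-sided exact permutation test (0.12 after Benjamini-Hochberg adjustment over the 6 ratios computed). A p of 0.1 is the smallest that 3 libraries against 3 allow. No test had been planned for this balance. The ratios contain Lama4, so their separation restates its difference and is no further support. Of the 6 ratios, that of Itga4 to Itgb1 overlapped between the groups (p = 0.9, same permutation test).

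**Figure D4:**
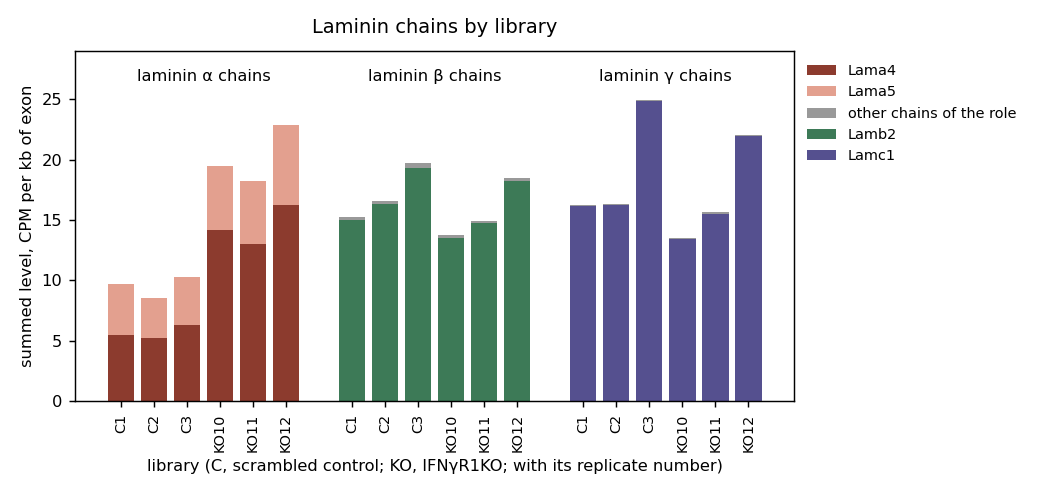
Summed level (CPM per kb of exon) of the laminin α, β and γ chains in each library (C1 to C3, scrambled control; KO10 to KO12, IFNγR1KO), split by gene. The α bars lie between 8.52 and 10.3 in scrambled control and between 18.2 and 22.9 in IFNγR1KO libraries, whereas the β and γ bars of the groups overlap.

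The windows before the transcription starts of called members were searched for short motifs. They are given for Lama5, which rose, and Itga1, which fell. The RefSeq promoter table of GRCm38.p6 held 22 of the 34 members, among them these 2 of the 4 called. Each window holds the 250 bases before the start, 5′ to 3′ on the strand of the gene, with motif matches in capitals.
Lama5 (chr2:180225860-180226109, minus strand): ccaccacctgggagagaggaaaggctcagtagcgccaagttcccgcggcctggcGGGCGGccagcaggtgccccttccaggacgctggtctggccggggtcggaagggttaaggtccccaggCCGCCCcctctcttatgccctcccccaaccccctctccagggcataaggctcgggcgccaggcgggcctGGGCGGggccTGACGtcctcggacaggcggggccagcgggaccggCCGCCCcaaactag
Itga1 (chr13:115101965-115102214, minus strand): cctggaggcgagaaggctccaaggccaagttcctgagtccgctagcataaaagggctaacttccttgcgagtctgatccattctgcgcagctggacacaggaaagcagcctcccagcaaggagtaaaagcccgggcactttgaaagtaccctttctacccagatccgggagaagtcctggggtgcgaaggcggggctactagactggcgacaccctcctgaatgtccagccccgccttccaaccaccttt
In all, 6 motifs were searched on both strands. The GC box GGGCGG, a binding motif of SP1 type factors, occurred 4 times in the Lama5 window and in 32.7% of the 32851 windows of the table. The cAMP response element half-site TGACG occurred once there and in 17.8% of windows. Neither window held the interferon-γ activated sequence TTCNNNGAA (7.02% of windows), the amino acid response element core TGATGNAA (3.45%), the E-box TCANGTG of the MITF type (12.2%) or the AP-1 site TGANTCA (6.75%), and the Itga1 window held none of the 6. No 2 of the marked matches overlap.

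Among the integrin β chains, Itgb1 took the largest share of the level in both groups. Itgb1, the shared partner of most α chains that bind matrix, had levels of 103, 99.4 and 115 CPM per kb in scrambled control and 91.5, 91.1 and 93.4 in IFNγR1KO libraries. All IFNγR1KO libraries lay below all scrambled control libraries, but the log2 fold change of -0.20 (95% interval -0.49 to 0.10) did not pass the test (adjusted p = 0.373, edgeR). Itgb5, which pairs with αv and binds vitronectin, had levels of 14.6, 15.8 and 19.8 in scrambled control and 19.7, 20.4 and 26.0 in IFNγR1KO libraries, so the groups overlapped in 1 library each. Its log2 fold change was 0.39 (95% interval 0.05 to 0.74, adjusted p = 0.121, edgeR). It passed without scrambled control replicate 3 (adjusted p = 0.0403) and without both replicates 3 and 12 (adjusted p = 0.0258), where 5 members were called in place of 4. Itgb3, the other vitronectin-binding partner of αv and long followed in melanoma progression, had levels of 4.43, 3.39 and 4.73 against 4.69, 4.36 and 5.88 (adjusted p = 0.384, edgeR). Itgb1 made up 82.8% ± 1.04 of the β chain level in scrambled control and 76.7% ± 2.30 in IFNγR1KO cells, and Itgb5 13.1% ± 1.11 and 18.3% ± 2.02 (SD, n = 3 each). The ratio of Itgb5 to Itgb1 within a library was 0.143, 0.159 and 0.173 in scrambled control and 0.215, 0.224 and 0.278 in IFNγR1KO libraries. Its p was 0.1 by exact permutation, two-sided, the lowest value possible here (0.12 after Benjamini-Hochberg adjustment over the 6 ratios). No test of this ratio had been planned, and neither gene passed by itself. Itgb4, the partner of α6 in hemidesmosomes, had 19 to 39 counts per library and a log2 fold change of 0.05 (95% interval -0.59 to 0.69, edgeR). Exons on the other strand cover 7.66% of its exonic bases.

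The 5 expressed α chains did not pass the test. Itga4, whose pair with β1 binds fibronectin and VCAM-1, was the highest, at 15.3, 12.3 and 17.9 CPM per kb in scrambled control and 11.9, 12.6 and 14.4 in IFNγR1KO libraries (log2 fold change -0.23, 95% interval -0.57 to 0.12, adjusted p = 0.388, edgeR). Exons of Cerkl on the other strand cover 8.04% of its exonic bases. Itga6, the main laminin-binding α chain here, had levels of 8.66, 8.04 and 10.4 against 6.58, 7.39 and 8.21, overlapping between the groups. Its log2 fold change was -0.29 (95% interval -0.61 to 0.03, adjusted p = 0.218, edgeR). Itgav, whose pairs bind the RGD motif of fibronectin and vitronectin, had levels of 6.53, 4.61 and 8.005 against 4.05, 5.14 and 5.61 (log2 fold change -0.37, 95% interval -0.80 to 0.05, adjusted p = 0.235, edgeR), with exons of Gm13684 on the opposite strand over 5.90% of its exonic bases. Itga9, a receptor for tenascin and osteopontin, lay between 4.83 and 7.001 CPM per kb, and Itga5, the fibronectin receptor, between 4.28 and 5.72, over all libraries. In both groups Itga4 lay above Itga6 and Itga6 above Itgav without overlap of the libraries, whereas the ranges of Itgav and Itga9, and of Itga9 and Itga5, overlapped. This order depends on the length: with the longest transcripts Itga4 and Itga6 overlapped in both groups (17.6 to 25.7 and 16.8 to 21.7 CPM per kb in scrambled control), and Itgav and Itga9 no longer overlapped in scrambled control. Itga4 made up 35.2% ± 1.29 of the α chain level in scrambled control and 34.0% ± 0.449 in IFNγR1KO cells, and Itga6 21.1% ± 0.820 and 19.4% ± 0.316 (SD, n = 3 each).

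Itga7 encodes the α7 chain, whose pair with β1 is the laminin receptor of muscle fibres. The gene (ENSMUSG00000025348.9) lies on chromosome 10 from 128933818 to 128958282. Scrambled control libraries held 5, 9 and 3 counts of it and IFNγR1KO libraries 35, 22 and 21, although the latter were sequenced less deeply. In CPM per kb these are 0.0671, 0.111 and 0.0358 against 0.614, 0.368 and 0.365. The log2 fold change was 2.63 (SE 0.42, 95% interval 1.71 to 3.55, adjusted p = 0.0016 from edgeR), and it passed under all 11 alternatives as well as against a log2 fold change of 1 (adjusted p = 0.0331). Having entered the test through IFNγR1KO libraries alone, it could hardly be tested without differing. At its higher level it was still 1.21% ± 0.499 of the α chain level, and 0.0444 to 0.0934 of the level of Itga6 in the same library.

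Itga1 encodes the α1 chain, whose pair with β1 binds collagen, type IV in particular. The gene (ENSMUSG00000042284.10) lies on chromosome 13 from 114953096 to 115101964. It had 111, 113 and 141 counts in scrambled control and 47, 52 and 56 in IFNγR1KO libraries, or 0.648, 0.604 and 0.733 against 0.359, 0.379 and 0.423 CPM per kb. The groups did not overlap. It fell by 0.77 on the log2 scale (SE 0.19, adjusted p = 0.0149, edgeR), and the call was lost without IFNγR1KO replicate 10 or 11 (adjusted p = 0.0714 and 0.0745).

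The other tested α chains, Itga10, Itga3 and Itga8, had at most 25 counts in any library and did not pass. Their 95% intervals on the log2 scale ran from -0.74 to 1.00, from -1.31 to 0.57 and from -1.69 to 0.05 in that order, so a fall by 1 lay within the intervals of Itga3 and Itga8. The groups did not overlap for Itga8. Exons of another gene on the same strand cover 33.5% of the exonic bases of Itga10, whose counts are therefore uncertain, and exons on the other strand cover 5.05% of those of Itga8. Itga3 and Itga10 code for a laminin and a collagen receptor chain, and Itga8 for a receptor chain for nephronectin.

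Of the 15 members that were not tested, 4 (Itga11, Itgam, Itgb6 and Lama1) had 0 counts in all libraries, and 3 more (Itgal, Lama2 and Lama3) had at most 3 counts in any library. The leukocyte chains Itgal and Itgam were among these, and Ptprc, the pan-leukocyte marker CD45, had 1 count in all. Exons of another gene on the same strand cover 68.7% of the exonic bases of Itgam, so its 0 is uncertain. Itgb2, the β chain of leukocyte integrins, nevertheless had 4 to 16 counts in every library, at 0.399 ± 0.150 and 0.288 ± 0.0914 CPM per kb (SD, n = 3 each). Itga2b, the platelet chain, had 4 to 11 counts. Of the platelet markers, Pf4 and Gp1ba had at most 1 count in a library, while Gp9 had 6, 6 and 11 counts in scrambled control and 3, 2 and 0 in IFNγR1KO libraries. Itgb8, an activator of TGF-β when paired with αv, had 7, 12 and 18 counts in scrambled control and 3, 1 and 4 in IFNγR1KO libraries, without overlap. Fitted without the filter its log2 fold change was -1.73 (adjusted p = 0.0497, edgeR), while DESeq2 gave an adjusted p of 0.178. It also passed without IFNγR1KO replicate 12 (log2 fold change -2.11, adjusted p = 0.0421, edgeR), which made 3 DEGs among the members. It did not pass without replicate 10 or 11 (adjusted p = 0.148 and 0.242, edgeR). Itgb8 entered these filtered fits through scrambled control libraries alone, where it was higher, so it could hardly be tested without differing. Itgb7 had 0, 0 and 3 counts against 3, 5 and 4. The remaining untested chains, Itga2, Itgae, Lamb3 and Lamc3, had at most 10 counts in any library.

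Laminins and integrins act with other receptors and ligands, which were counted in 5 lists of 95 genes, of which 77 were tested. Of these 13 were called, 6 higher and 7 lower, or 16.9%, a share near the 15.3% of all tested genes. Without replicates 3 and 12 there were 28 calls, 10 higher and 18 lower, while calls over all genes also increased, from 2093 to 3064. Genes of these lists that were not DEGs fall outside the rule for naming and were named after their values were seen.

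Of 12 other laminin receptors and the enzymes that modify them, all tested, 2 fell and none rose. The called share of 16.7% was near the 15.3% of all tested genes. Sdc3, encoding syndecan-3, a heparan sulphate proteoglycan, had levels of 10.4, 10.9 and 13.9 CPM per kb in scrambled control and 2.54, 3.64 and 3.90 in IFNγR1KO libraries. The log2 fold change was -1.80 (SE 0.18, adjusted p = 6.7e-05, edgeR), and exons of genes on the opposite strand cover 7.73% of its exonic bases. Sdc1, encoding syndecan-1, fell by 0.96 on the log2 scale (adjusted p = 0.00085, edgeR). Dag1, encoding dystroglycan, had a log2 fold change of -0.61 with groups that did not overlap and did not pass (adjusted p = 0.0604, edgeR). In other fits it passed without replicates 3 and 12 (adjusted p = 0.00094) and in DESeq2 (adjusted p = 0.0294). Rpsa, Mcam, Sdc2 and Sdc4 did not pass.

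Among 14 basement membrane partners of laminins, 10 were tested, 1 rose and 1 fell. That is 20.0% of those tested, beside 15.3% of all tested genes. Nid2, encoding nidogen-2, which ties laminin to collagen IV, had 25, 30 and 48 counts in scrambled control and 4, 9 and 6 in IFNγR1KO libraries. The groups did not overlap, with a log2 fold change of -1.96 (SE 0.39, adjusted p = 0.0053, edgeR). Nid2 entered the test through the scrambled control libraries, where it was higher, as only 1 IFNγR1KO library passed the filter's minimum. Exons on the other strand cover 8.45% of its exonic bases. Nid1, its paralog, had a log2 fold change of -0.01 (95% interval -0.37 to 0.35, edgeR). Col4a2, a collagen IV chain, was higher by 0.64 on the log2 scale (adjusted p = 0.0477, edgeR), with overlapping groups, and lost the call in 4 of the 6 fits that left out 1 library. The perlecan and agrin genes, Hspg2 and Agrn, did not pass.

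Among 22 other integrin ligands, 14 were tested, 2 rose and 3 fell. Calls made up 35.7% of the tested ligands, beside 15.3% of all tested genes. Spp1, encoding osteopontin, a ligand of αv and α9 integrins, had levels of 94.3, 90.7 and 78.0 CPM per kb in scrambled control and 39.1, 34.0 and 25.2 in IFNγR1KO libraries, a log2 fold change of -1.42 (SE 0.17, adjusted p = 0.00022, edgeR). Exons of another gene on the same strand cover 18.75% of its exonic bases. Ccn2 fell by 1.11 on the log2 scale (adjusted p = 0.0064, edgeR), and exons of the opposite strand cover 23.2% of its exonic bases. Thbs1 also fell, by 0.81 (adjusted p = 0.0454, edgeR), a call lost in 5 of the 6 fits that left out 1 library (adjusted p up to 0.197) and kept without IFNγR1KO replicate 12 (adjusted p = 0.0054). Col1a2, a collagen I chain, rose from 4.74 ± 0.745 to 9.97 ± 0.0994 CPM per kb (SD, n = 3 each), and Col1a1 from 0.203 ± 0.0544 to 0.792 ± 0.211. Their log2 fold changes were 1.07 and 1.96 (adjusted p = 0.00048 and 0.0018, edgeR). Col1a1 entered the test through the IFNγR1KO libraries, since 1 scrambled control library passed the filter's minimum. The collagen I genes also stand in the list of 5 fibroblast markers, whose summed level was 57.01 to 75.5 CPM in scrambled control and 128.7 to 133.4 CPM in IFNγR1KO libraries. Of the other 3 markers, Lum had 0 counts, Dcn 1 count in all, and Pdgfra a log2 fold change of -0.77 (adjusted p = 0.0866, edgeR). Fn1, encoding fibronectin, had a log2 fold change of 0.51 and did not pass (adjusted p = 0.152, edgeR).

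Among 37 adaptors and kinases of adhesions, 32 were tested, 1 rose and 1 fell. Calls made up 6.2% of those tested, beside 15.3% of all tested genes. Log2 fold changes were below 0 for 23 of the 32 and above 0 for 9. Their median was -0.115, beside -0.0015 for all tested genes. Zyx, encoding zyxin, a protein of mature adhesions, was higher by 0.71 on the log2 scale (adjusted p = 0.0195, edgeR), and Tns3, encoding tensin-3, a β tail binding protein, fell by 0.77 (adjusted p = 0.0241, edgeR). Both calls depended on single libraries: that of Zyx was lost without scrambled control replicate 1 or 2 (adjusted p = 0.0715 and 0.0901), and that of Tns3 without scrambled control replicate 2 or IFNγR1KO replicate 10 or 11 (adjusted p = 0.0656, 0.102 and 0.119). Actn1 and Actn4 did not pass, but were called lower without IFNγR1KO replicate 12 (adjusted p = 0.0142 and 0.0059, edgeR). Without replicates 3 and 12 they were also called (adjusted p = 0.0185 and 0.0027, edgeR). They passed in no other fit that left out 1 library. Ptk2, encoding focal adhesion kinase, had a log2 fold change of -0.04 (SE 0.15, adjusted p = 0.906, edgeR) and Src one of 0.24 (SE 0.19, adjusted p = 0.435, edgeR). These are amounts of RNA and say nothing of phosphorylation.

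Of 10 membrane partners of integrins, 9 were tested and 2 rose, or 22.2% called beside 15.3% of all tested genes. Slc3a2, encoding the heavy chain of amino acid transporters, which also binds β1 tails, had levels of 72.0, 80.7 and 69.5 CPM per kb in scrambled control and 209, 198 and 198 in IFNγR1KO libraries (log2 fold change 1.45, SE 0.14, adjusted p = 4.9e-05, edgeR). Cd82, a tetraspanin, was higher by 0.60 on the log2 scale (adjusted p = 0.0114, edgeR), a call lost without IFNγR1KO replicate 10 (adjusted p = 0.0615). Cd151, the tetraspanin that associates with laminin-binding integrins, had a log2 fold change of -0.10 (adjusted p = 0.735, edgeR), with exons of the other strand over 7.04% of its exonic bases.

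**Figure D5:**
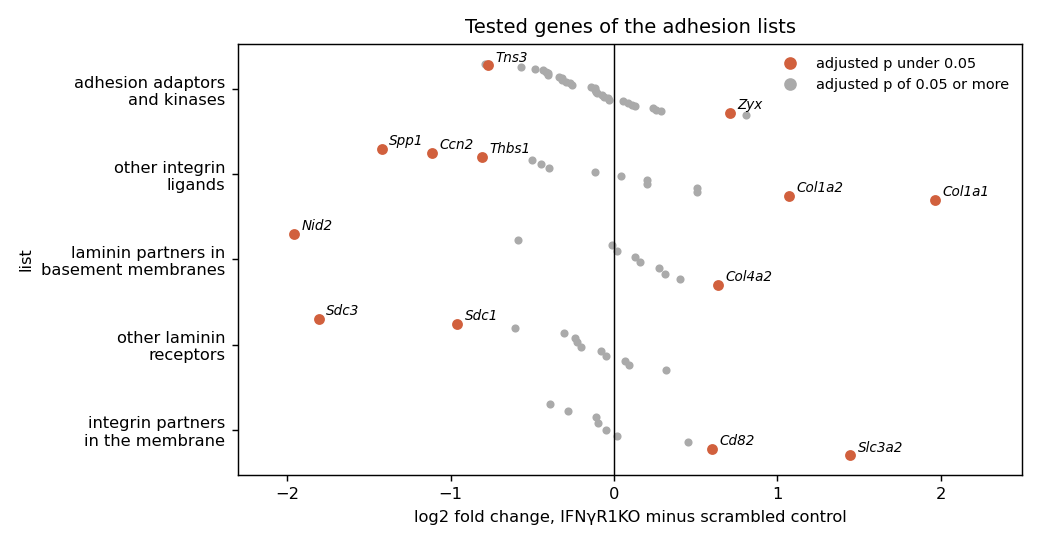
Log2 fold change (IFNγR1KO minus scrambled control, horizontal axis) of the tested genes in the 5 adhesion lists, one point per gene, with genes of adjusted p under 0.05 in orange and named. Both called receptors in the list of other laminin receptors lie left of 0, and the called ligands lie on either side.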

How the data were processed

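RNA of 3 scrambled control and 3 IFNγR1KO cultures was analysed. According to the study's methods and the submitters' processing notes, STAR 2.7.5a was used for alignment (GRCm38) and HTSeq 0.11.2 for counting. What the authors deposited are raw read counts of each gene, not normalized; the annotation release and the strand setting are not given in the sources used here. Reads that HTSeq assigned to no feature, 46.9% to 47.7% of those listed in a library, were left out. These reads need not lie outside genes. All further values were calculated here with R 4.3.3. Symbols, positions and exonic lengths came from GENCODE release M21, matched on the identifier without its version (2 of the 34 members have another version in the tables, so their lengths may differ). edgeR 4.0.16 was used with filterByExpr (minimum count 10, minimum total 15), TMM factors and the quasi-likelihood test over all genes, with Benjamini-Hochberg adjustment. Calls had an adjusted p under 0.05. DESeq2 1.42.0 with the Wald test, other scalings, no filter and leaving out libraries were the alternatives, and the tests were tested on simulated data. 95% intervals are per gene and unadjusted. Any 2 libraries of a group differed by more than sampling noise (chi-square per degree of freedom 2.62 to 22.7). For the members and the named DEGs, exonic bases shared with exons of another gene are given where they exceed 5%. Named by rule were all members, with values per library for called members and the 3 highest of each role, and DEGs of the lists. Members and lists were chosen with earlier results of these data known. Protein sequences were not analysed here.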

Additional observations from a re-analysis of the deposited data

How the results depend on the processing

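The number of called members was 4 (3 higher and 1 lower). With DESeq2, with RLE or upper-quartile factors and without a filter it was 4 or 5. It was between 2 and 5 when 1 library was left out, with 2 without IFNγR1KO replicate 10 or 11. Lama4 and Itga7 were called in each of these 6 fits, but Itga7 had entered the main test through the IFNγR1KO libraries alone. The 2 DEGs among members became 1, Itga7, and the 7 among the adhesion lists became 1 when a log2 fold change of 1 was the null. The same null reduced all DEGs from 710 to 134. Calls in the adhesion lists, 13 in the comparison reported, were 20 without a filter and 9 to 22 when 1 library was left out, 22 being without IFNγR1KO replicate 12 and 28 without replicates 3 and 12 together, a fit chosen after seeing the data, which gave 3064 calls and 742 DEGs over all genes and 6 DEGs in the lists. Over all genes, 2093 calls became 1028 to 2824 when 1 library was left out, the lower numbers being 1095 and 1028 without IFNγR1KO replicate 10 and 11 and 1087 without scrambled control replicate 2. The share of Lama4 among laminin α chains was higher by 12.4 percentage points in IFNγR1KO cells, by 10.7 to 13.3 when 1 library was left out, and by 9.11 points with the longest transcript as length. In all fits 12 members stayed above 1 CPM per kb. No called gene changed sign. No paired analysis was possible because the replicate numbers of the groups (1 to 3 and 10 to 12) share none. The filter on low counts left out 15 chains, and at their counts the fits without it rest on few reads. The causes of these shifts were not tested.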

Other observations

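Kindlins and talins, which bind integrin β tails, were each represented mainly by 1 gene of their family, a description made after the values were seen. Of the kindlins, Fermt2 stood at 28.9 ± 2.63 CPM per kb in scrambled control and 26.2 ± 2.84 in IFNγR1KO cells (SD, n = 3 each), whereas Fermt1, the epithelial kindlin, had 0 counts in all libraries and Fermt3, the kindlin of blood cells, 5 to 15 counts. Of the talins, Tln1 stood at 26.8 ± 7.88 and 24.7 ± 7.26 CPM per kb, and Tln2 at 4.43 ± 1.21 and 3.35 ± 1.29 (SD, n = 3 each). None of the tested genes of these families passed the test (adjusted p from 0.314 to 0.787, edgeR). Cav1, encoding caveolin-1, a membrane partner of integrins, was not tested: it had 6, 3 and 7 counts in scrambled control and 0 in every IFNγR1KO library.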
